A study of Mus musculus with 123 samples.

Results

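Cells change which genes they can use partly by writing and erasing chemical marks on histones and on DNA. Deacetylases and sirtuins take acetyl groups off histones and other proteins, acetyltransferases add them, methyltransferases such as those of the Polycomb complex PRC2 add methyl groups to histone H3, demethylases take these off, DNA methyltransferases methylate cytosines, and TET dioxygenases oxidise the methyl group of 5-methylcytosine. In sensory neurons of the dorsal root ganglion (DRG) these enzymes are studied because a cut peripheral axon sets off a broad change in gene expression in the cell body. The genes described here are 35 enzymes and cofactors of this kind, chosen by name among 24134 genes in the tables: 11 zinc-dependent histone deacetylases, 2 sirtuins, 4 genes of DNA methylation, 3 TET genes, 4 of PRC2, 4 methyltransferases of histone H3 lysine 9, 3 histone demethylases and 4 acetyltransferases.

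All mice were adults 2 months old, and in each the right sciatic nerve was cut at mid thigh (sciatic nerve transection, SNT). Neurons of lumbar DRG on the cut side were compared with neurons of the opposite side of the same mice, called control, so that control neurons also came from an operated animal. At day 3 the mice were female F1 offspring of CAST/Eij males and C57BL/6 females, and at day 7 they were C57BL/6 mice of both sexes. Neurons were picked by hand after dissociation and made into libraries by Smart-seq2, which amplifies full-length cDNA and carries no molecular identifiers. The cells kept after the removal of 11 outliers by the study were 41 on the SNT side and 18 on the control side at day 3, and 33 and 14 at day 7. Day, strain, the sexes included and sequencing (single-end at day 3, paired-end at day 7) changed together and cannot be told apart.

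At day 3 each side also gave 3 libraries of pooled neurons, which are parts of 1 lysate a side, so p-values from them measure technical spread between libraries and not spread between mice. The column names of these 6 libraries and the identifiers in the same table pair the sides in opposite ways, and the source label calls all 6 intact. The names were used, and every direction given for the pooled neurons rests on them. *Atf3*, a transcription factor induced in axotomized neurons, had a mean of 1549 counts per 1000000 counts of a library, scaled by TMM (CPM), in the libraries named SNT and 12.7 in those named control. Day-3 SNT cells averaged 1476 CPM of it and day-3 control cells 17.7 CPM. TMM scaling, which adjusts for a shift shared by most genes, was applied to the level of each gene in the pools. Levels in cells, and sums over marker genes everywhere, were scaled by the total count alone. Total counts were 1148849 to 2003817 in the SNT pools, 563462 to 839135 in the control pools, and 261351 to 1849130 (median 853833) in kept cells. Depth differed by side: median totals were 1323932 in SNT and 862619 in control cells at day 3, and 575179 and 738947 at day 7. Ranges and zeros in cells depend on this depth.

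Markers showed that the pools differed in more than injury. The summed level of 8 satellite glia and Schwann cell genes was 11796 to 14524 CPM in the control pools and 5759 to 6574 CPM in the SNT pools. There *Fabp7*, *Apoe* and *Kcnj10* fell and *S100b* and *Pmp2* rose. *Pmp2* rested on only 4 to 6 counts in an SNT library and 0 in every control library. All 5 markers of nonpeptidergic nociceptors (NP), 3 of 4 of peptidergic nociceptors (PEP) and all 3 of C-fibre low-threshold mechanoreceptors fell in the SNT pools, while *Nefh* and *Ntrk3*, markers of large myelinated neurons (LM), rose and *Ntrk2*, another LM marker, fell. Summed leukocyte genes stayed at or below 8.97 CPM in every pool, with *Ptprc*, *Itgam* and *Tyrobp* at 0. In kept cells 8 neuronal genes summed to at least 9207 CPM, so every one carried neuronal RNA. The 3 neutrophil genes had a median of 0 in all groups of cells but reached 4036 CPM in a day-3 SNT cell and 697 CPM in a day-7 SNT cell, against at most 0.982 CPM in control cells. Leukocyte genes summed to as much as 348 CPM in a day-3 SNT cell and 219 CPM in a day-7 SNT cell, against at most 75.1 and 5.11 CPM in control cells. Erythrocyte genes reached 4670 CPM in a day-7 SNT cell, against at most 33.1 CPM in the control cells of that day. The part of these differences in the results that follow was not tested, and in pools fewer cells of a type and less RNA per cell cannot be told apart.

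The results turn on *Tet3*, *Hdac6*, *Hdac3*, *Hdac11* and *Hdac4*, the enzymes that passed the test in pooled neurons. For 4 of them, *Tet3*, *Hdac6*, *Hdac11* and *Hdac4*, the 150 bases before the transcription start are shown so that the DNA in front of these genes can be seen beside their levels. They are from RefSeq on GRCm38.p6 and read 5′ to 3′ on the strand of the gene, and capitals mark the GC box, GGGCGG on either strand, a binding sequence of Sp1-type factors.

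*Tet3*, chr6:83441679-83441828, minus strand: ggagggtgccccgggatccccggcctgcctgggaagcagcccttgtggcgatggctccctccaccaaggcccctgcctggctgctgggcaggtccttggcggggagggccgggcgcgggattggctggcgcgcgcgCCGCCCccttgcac

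*Hdac6*, chrX:7947890-7948039, minus strand: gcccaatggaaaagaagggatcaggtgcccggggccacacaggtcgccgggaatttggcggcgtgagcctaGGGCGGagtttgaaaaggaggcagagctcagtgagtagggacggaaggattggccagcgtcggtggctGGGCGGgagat

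*Hdac11*, chr6:91156665-91156814, plus strand: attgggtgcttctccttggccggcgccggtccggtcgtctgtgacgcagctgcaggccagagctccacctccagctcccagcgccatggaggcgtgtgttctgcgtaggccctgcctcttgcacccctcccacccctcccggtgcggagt

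*Hdac4*, chr1:92180342-92180491, minus strand: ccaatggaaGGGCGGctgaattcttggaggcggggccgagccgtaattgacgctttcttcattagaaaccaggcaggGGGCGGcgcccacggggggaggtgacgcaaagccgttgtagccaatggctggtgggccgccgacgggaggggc

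Over the 250 bases before the start, the GC box was found once for *Tet3*, 4 times for *Hdac6*, 4 times for *Hdac4* and once for *Hdac11*, where it lies outside the stretch shown. It occurred in 32.7% of 32851 promoter windows of that length and in 64.4% of the 45 windows of the 31 enzymes that had an entry. Neither the AP-1 sequence TGANTCA nor the full cyclic AMP response element TGACGTCA, the letters that Jun and ATF family proteins are known to bind, was in the window of any of the 4 genes. TGANTCA was in 6.75% of all windows and 6.67% of the enzymes' 45 windows, and TGACGTCA in 1.55% and 0%. The shorter TGACG, searched on both strands and contained in TGACGTCA, was found 2 times for *Hdac4*, once for *Hdac11* and not for *Tet3* or *Hdac6*. TGACG was in 17.8% of all windows and 15.6% of the enzymes' windows. These matches describe the letters only.

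Pooled neurons at day 3 were used to ask which of the enzymes differ between injured and control neurons. *Tet3* and *Hdac6*, which code for a TET dioxygenase and for a mostly cytoplasmic deacetylase of tubulin, rose 5.19-fold and 3.439-fold, *Hdac3* rose 1.82-fold, and *Hdac4* and *Hdac11* fell to 0.357 and 0.477 of the control mean. Of the 35 genes, 33 passed the filter of a mean of at least 1 CPM, and *Dnmt3b* and *Uhrf1* were at 0 in all 6 libraries. The 5 genes named passed edgeR's quasi-likelihood test at a Benjamini-Hochberg adjusted p below 0.05, which is 15.2% of the 33 tested, against 24.8% of 13509 genes. By direction, 3 rose, where 14% of all genes did, and 2 fell, where 10.8% did. Past the test and 2-fold there were 4 (all but *Hdac3*), where 15.9% of all genes were. The share of these enzymes that changed was therefore not above the background, and their median log2 change was 0.08 beside 0.02 for all genes tested.

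**Figure D1:**
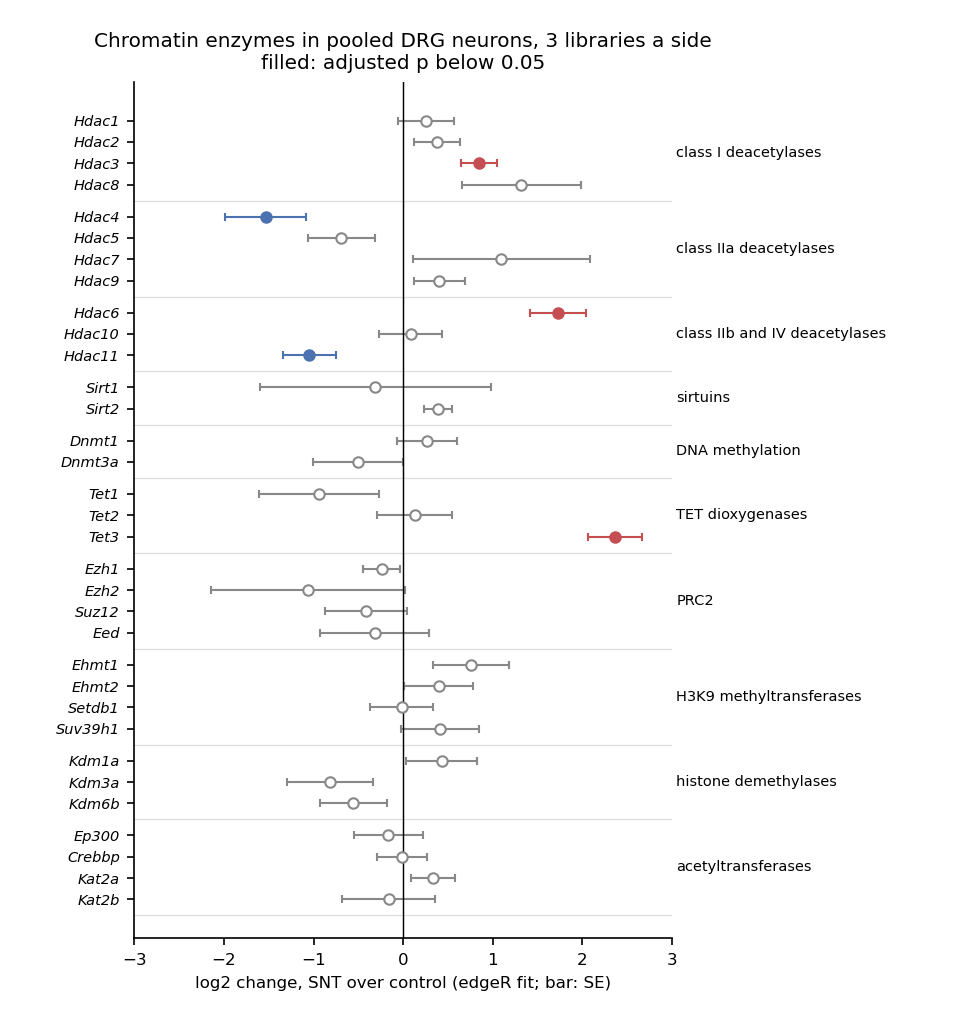
Log2 change of the 33 tested enzymes in pooled neurons, SNT over control, as fitted by edgeR, with bars of 1 standard error (SE) and 3 libraries a side. Filled points passed the test (red higher, blue lower). *Tet3* at 2.37 and *Hdac6* at 1.73 lie farthest to the right, and *Hdac4* at -1.54 farthest to the left.

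*Tet3* codes for a TET enzyme that is expressed in neurons. Its level was 13, 14.7 and 15.1 CPM in the control libraries and 82.4, 77.4 and 62.3 CPM in the SNT libraries. Every SNT library lay more than 40 CPM above every control library, and the log2 change was 2.37 ± 0.30 (SE, n = 3 libraries a side, edgeR adjusted p = 4.3e-08). The other TET genes did not pass: *Tet1* had a log2 change of -0.94 (adjusted p = 0.338) and *Tet2* 0.13 (adjusted p = 0.868). Their 95% intervals from the SE were -2.25 to 0.37 and -0.70 to 0.95. *Tet1* rested on 2 to 14 counts per library, so a fall past 2-fold was not excluded for it. *Tet3* rested on 9 to 13 counts in a control library and 84 to 132 in an SNT library.

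*Hdac6* measured 16.9, 28.3 and 10.1 CPM in control libraries and 72.4, 48.8 and 68.7 CPM in SNT libraries. The sides did not overlap, and the log2 change was 1.73 ± 0.31 (adjusted p = 3.05e-05). *Hdac10*, the other class IIb deacetylase, had 24.6, 18.1 and 21.8 CPM in control and 22.5, 17.5 and 27.2 CPM in SNT libraries, which overlap (log2 change 0.08, adjusted p = 0.901). *Hdac11*, the only class IV deacetylase, measured 57.1, 53.2 and 38.6 CPM in control and 31.8, 14.7 and 24.5 CPM in SNT libraries. Here too the sides were apart, with SNT lower (log2 change -1.05 ± 0.30, adjusted p = 0.00768). The call for *Hdac11* was lost without SNT library 2 (log2 change -0.82, adjusted p = 0.0654).

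Class I deacetylases include the catalytic subunits of several nuclear corepressor complexes. Within that class *Hdac3*, the subunit of the NCoR and SMRT complexes, measured 62.3, 99.6 and 70.6 CPM in control and 138, 152 and 133 CPM in SNT libraries, again without overlap. Its log2 change was 0.84 ± 0.20 (adjusted p = 0.00112). *Hdac1*, *Hdac2* and *Hdac8* had log2 changes of 0.25, 0.38 and 1.32 with adjusted p of 0.614, 0.317 and 0.148. *Hdac8* had only 1.30 to 6.79 CPM in control and 6.45 to 11.9 CPM in SNT libraries, so little could be resolved at this depth.

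Class IIa deacetylases shuttle between nucleus and cytoplasm and bind MEF2 factors. *Hdac4* measured 15.6, 32.8 and 21.8 CPM in control and 5.62, 12 and 7.45 CPM in SNT libraries, with the lowest control library above the highest SNT library. The log2 change was -1.54 ± 0.45 (adjusted p = 0.00906). It rested on 9 to 29 counts per library, and the call was lost without control library 2 (log2 change -1.19, adjusted p = 0.108), without SNT library 1 (-1.31, adjusted p = 0.0602) and when all libraries were thinned to the smallest total (-1.06, adjusted p = 0.142). *Hdac5* lay at -0.69 (adjusted p = 0.192), and *Hdac7* and *Hdac9* at 1.09 and 0.40 (adjusted p of 0.469 and 0.330).

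**Figure D2:**
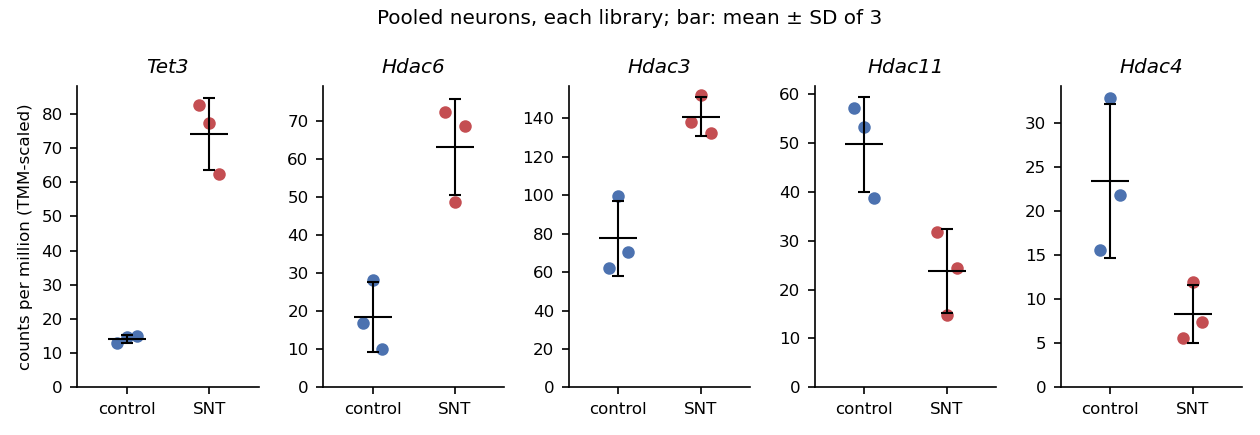
Level of the 5 enzymes that passed the test in each pooled library, in CPM scaled by TMM, with axes from 0 and bars of the mean ± SD of 3 libraries. The sides do not overlap in any of the 5, and *Tet3* runs from 13 to 15.1 CPM in control and from 62.3 to 82.4 CPM in SNT libraries.

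No gene of the other role groups passed the test in pooled neurons. The deacetylases *Sirt1* and *Sirt2*, which depend on NAD, had log2 changes of -0.31 and 0.39, and *Sirt2* (139 to 181 CPM in control, 205 to 226 CPM in SNT libraries) came nearest with an adjusted p of 0.0741. *Dnmt1*, the maintenance methyltransferase, and *Dnmt3a*, a de novo methyltransferase, lay at 0.27 and -0.51. The PRC2 subunits *Ezh1*, *Ezh2*, *Suz12* and *Eed* ranged from -1.06 to -0.24, and *Ezh2*, the catalytic subunit typical of dividing cells, had at most 5.04 CPM in any library. The lysine 9 methyltransferases *Ehmt1*, *Ehmt2*, *Setdb1* and *Suv39h1* ranged from -0.02 to 0.76. The demethylases *Kdm1a*, *Kdm3a* and *Kdm6b* lay at 0.43, -0.82 and -0.56, and the acetyltransferases *Ep300*, *Crebbp*, *Kat2a* and *Kat2b* ranged from -0.17 to 0.33. Counting any gene whose 3 SNT libraries all lay above or all below the 3 control libraries gave 8 of the 33, or the 5 called plus *Sirt2*, *Ehmt1* and *Kdm6b*, where 37.7% of all genes tested did so.

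Other chromatin genes were followed with a list of 135 further acetyltransferases, demethylases, methyltransferases, Polycomb and deacetylase partners, and methyl-CpG readers. Of 132 tested, 10 rose and 7 fell, which is 12.9% against the 24.8% of all genes, and their median log2 change was 0.10. Among those that passed, the largest rises past 2-fold were *Gadd45a* and *Gadd45g*, stress-induced genes that have been tied to active DNA demethylation. *Gadd45a* measured 5.19, 13.6 and 6.72 CPM in control and 94.9, 88.5 and 123 CPM in SNT libraries (log2 change 3.52 ± 0.32, adjusted p = 1.35e-11). *Gadd45g* measured 20.8, 29.4 and 43.7 CPM in control and 206, 249 and 263 CPM in SNT libraries (2.97 ± 0.22, adjusted p = 5.09e-14). For both, the SNT libraries stood far above the control libraries. The largest falls past 2-fold among those that passed were the arginine methyltransferases *Prmt8* (49.3, 23.8 and 31.9 CPM in control, 5.00, 4.61 and 2.66 CPM in SNT libraries, log2 change -3.10 ± 0.46, adjusted p = 1.2e-06) and *Prmt6* (24.6, 15.9 and 38.6 CPM against 10.6, 12 and 11.2 CPM, -1.19 ± 0.41, adjusted p = 0.0280). *Prmt6* lost its call under 8 of 14 alternatives. None of the 23 tested Polycomb partners passed.

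Single neurons at day 3 were used to see how these levels are spread over cells. The labels name no animal, so the cells of 1 side and day were treated as 1 sample, and means, ranges and log2 ratios of mean CPM + 1 are given without a test. *Tet3* was higher on the SNT side by a log2 ratio of 1.51 and *Hdac4* was lower by -1.12, and they were the 2 of 33 enzymes past 2-fold (6.06%), where 13.2% of 13663 genes were. The median log2 ratio of the 33 was -0.18 beside -0.04 for all genes. With the outlier cells included, *Tet3* was at 1.40 and *Hdac4* at -0.94, so that *Tet3* alone was past 2-fold.

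*Tet3* had counts in every day-3 cell. It ran from 4.82 to 42.4 CPM (median 19.1) in the 18 control cells and from 6.10 to 170 CPM (median 53.0) in the 41 SNT cells, with means of 20.3 ± 8.38 and 59.9 ± 42.1 CPM (SD over cells). On the SNT side 24 of 41 cells lay above every control cell and none lay below, and 1.43% of all genes had at least as many cells above. The shares of genes beside the counts that follow are meant in the same way. Summed over cells the level was 21.2 CPM in control (327 counts, exact Poisson 95% interval 18.9 to 23.6) and 61.8 CPM on the SNT side (3212 counts, interval 59.7 to 64.0). Such intervals cover counting error only.

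*Hdac4* ran from 6.79 to 60.4 CPM (median 34.1) in control cells and from 0 to 49.8 CPM (median 10.2) in SNT cells, with means of 31 ± 15.6 and 13.8 ± 10.5 CPM. The ranges overlapped, but 11 SNT cells lay below every control cell, as in 6.1% of all genes, and none above. *Hdac11* ran from 16.7 to 90.7 CPM (median 47.1) in control and from 1.91 to 98.2 CPM (median 15.4) in SNT cells. Its SNT cells were spread on both sides of the control range, 21 of 41 below it, as in 1.35% of all genes, and 2 above. By means the log2 ratio of *Hdac11* was -0.81, and by medians over cells it was -1.55. *Hdac6* ran from 0 to 95.3 CPM (median 23.2) in control and from 10.9 to 156 CPM (median 47.5) in SNT cells, a log2 ratio of 0.99, just short of 2-fold, with 4 SNT cells above every control cell, as many as in 26.3% of all genes. *Hdac3* had medians of 49.3 CPM in control and 75.3 CPM in SNT cells, with largely overlapping ranges (log2 ratio 0.51).

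**Figure D3:**
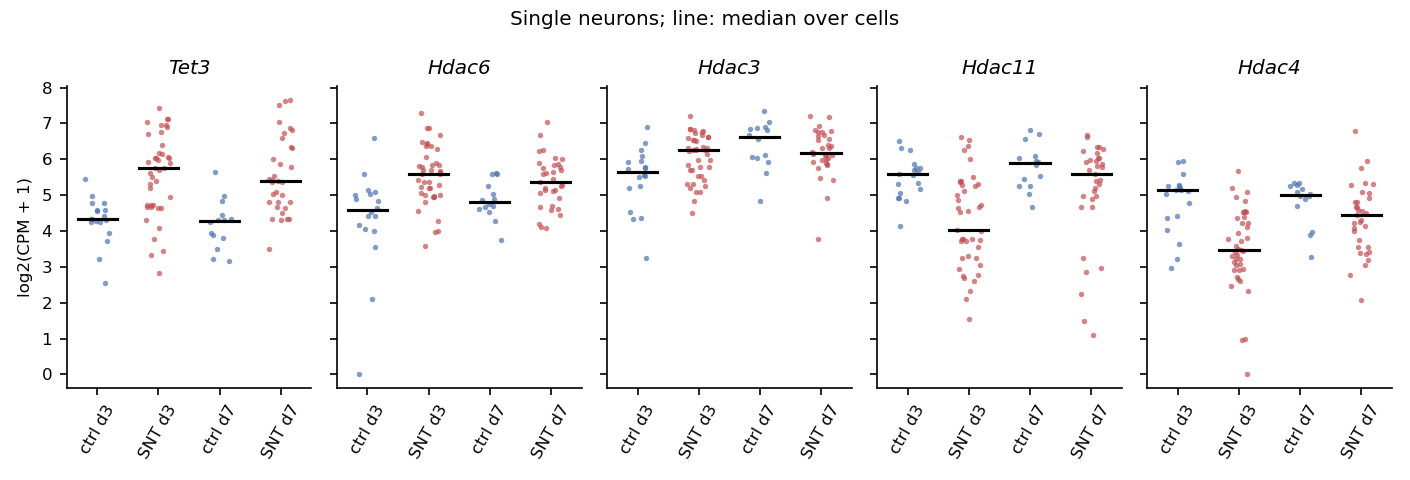
Level of the 5 enzymes in each kept neuron as log2(CPM + 1), for control (blue) and SNT (red) cells at day 3 (18 and 41 cells) and day 7 (14 and 33 cells), with a line at the median over cells. *Tet3* medians are 19.1 and 53.0 CPM at day 3 and 18.2 and 41.1 CPM at day 7, and *Hdac11* on the SNT side is spread over a wide range on both days.

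The remaining 28 enzymes tested in day-3 cells had log2 ratios between -0.53 (*Hdac5*) and 0.50 (*Sirt1*). PRC2 ranged from -0.35 to 0.29, the lysine 9 methyltransferases from -0.36 to -0.03, and the acetyltransferases from -0.45 (*Crebbp*) to 0.09 (*Kat2a*). *Kdm6b*, a demethylase of histone H3 lysine 27, stood at 0.45, with 12 of 41 SNT cells above every control cell, while it had measured -0.56 in the pools. The median over all genes was 1 such cell, and the share of genes with as many as *Kdm6b* was not counted. *Dnmt3b* and *Uhrf1* lay under the filter, with counts in 4 and 6 of 41 SNT cells and in 1 and 2 of 18 control cells. Among the other chromatin genes *Gadd45a* had means of 23.1 CPM in control and 197 CPM in SNT cells, *Gadd45g* 60.7 and 254 CPM, *Prmt8* 44.9 and 7.9 CPM, and *Prmt6* 10.6 and 11.5 CPM, so that *Prmt6* had no lower mean there.

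At day 7 *Tet3* was the only one of the 33 enzymes past 2-fold, at a log2 ratio of 1.64, where 9.86% of 13320 genes were. It ran from 7.96 to 49.0 CPM (median 18.2) in the 14 control cells and from 10.3 to 201 CPM (median 41.1) in the 33 SNT cells, with means of 19.3 ± 10.8 and 62.4 ± 52.9 CPM. Above every control cell lay 13 of 33 SNT cells, as in 3.2% of all genes. Summed over cells it was 18.4 CPM in control (194 counts, interval 15.9 to 21.2) and 62.9 CPM on the SNT side (1240 counts, interval 59.5 to 66.5). In female cells (16 SNT, 7 control) the means were 59.3 and 17.4 CPM, and in male cells (17 and 7) 65.4 and 21.3 CPM, log2 ratios of 1.71 and 1.57.

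*Hdac6* at day 7 ran from 12.4 to 47.9 CPM (median 26.9) in control and from 15.9 to 131 CPM (median 39.99) in SNT cells, and 14 of 33 SNT cells lay above every control cell, as in 2.36% of all genes. Its log2 ratio was 0.59, with 0.70 in female and 0.49 in male cells. *Hdac11* had medians of 58.1 CPM in control and 46.9 CPM in SNT cells (log2 ratio -0.37), and 7 SNT cells lay below every control cell, as in 17.8% of all genes. *Hdac4* had a log2 ratio of -0.23 that differed in sign between the sexes: the means were 15.3 CPM in SNT and 28.7 CPM in control cells of females (-0.87), and 33.6 and 29.4 CPM in males (0.19). The number of mice behind each sex is not given in the labels, and the difference was not tested. *Hdac3*, which rose in the pools, had a log2 ratio of -0.22 at day 7.

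Several enzymes below 2-fold at day 7 leaned upward. *Dnmt3a* had means of 18.5 ± 10.2 CPM in control and 34.9 ± 20.6 CPM in SNT cells (log2 ratio 0.89). Above every control cell lay 13 of 33 SNT cells, as in 3.2% of all genes. *Hdac7*, *Tet2*, *Kdm6b*, *Kat2b* and *Dnmt1* lay at 0.90, 0.68, 0.62, 0.58 and 0.55. The order of these depended on sex: *Hdac7* was at 0.08 in female and 1.24 in male cells, *Dnmt3a* at 0.55 and 1.12, *Dnmt1* at 0.05 and 0.97, and *Tet2* at 1.14 and 0.36. *Crebbp*, the CREB-binding acetyltransferase, lay at 0.49 (0.62 and 0.39 by sex). The lowest log2 ratio was that of *Hdac10* at -0.50, followed by *Sirt2* at -0.38. *Gadd45a* again had a far higher mean on the SNT side, 150 against 21.1 CPM.

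Markers moved beside these values. The 8 glial genes summed to a median of 3651 CPM in SNT and 3620 CPM in control cells at day 3, and to 1483 and 4776 CPM at day 7. By means, 0 of the 7 glial genes tested at day 7 were past 2-fold, with a median log2 ratio of -0.33. The highest glial sum at day 7 was 12202 CPM in an SNT cell and 9254 CPM in a control cell. The 5 LM markers summed to medians of 3072 CPM in SNT and 3094 CPM in control cells at day 7, against 214 and 176 CPM at day 3, so that the day-7 cells were richer in LM markers. The 4 PEP markers summed to medians of 341 CPM in SNT and 2856 CPM in control cells at day 3, where all 4 were lower past 2-fold. At day 7 they summed to medians of 5.6 and 491 CPM. By means at day 7, however, 1 PEP marker was higher past 2-fold, 1 was lower and 2 were neither. Their median log2 ratio of means was -0.28. The 3 C-fibre mechanoreceptor markers had medians of 6.1 and 31.6 CPM at day 3, and all 3 were lower past 2-fold. The 5 NP markers summed to near medians of 1233 and 1196 CPM, but 3 of them were lower past 2-fold. Their median log2 ratio of means was -1.43. Of the 5 LM markers, 2 were higher past 2-fold at day 3 and 0 lower. At day 7, 3 of them were higher past 2-fold and 0 lower, although the summed medians were near. Their median log2 ratio of means was 1.18 at day 7. The part of these markers in the values was not tested.

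**Figure D4:**
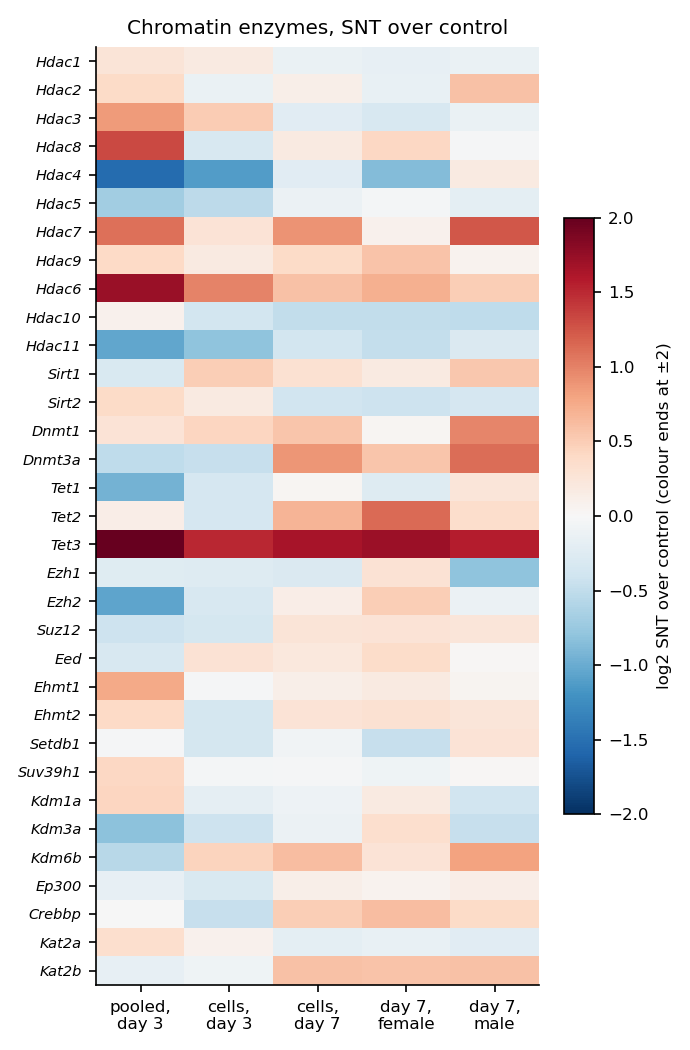
Log2 of SNT over control for the 33 enzymes that could be followed in pooled neurons, day-3 cells and day-7 cells, and in day-7 cells of each sex, where red is higher and blue lower in SNT and colours end at 2 and -2. *Tet3* is red in every column (2.37, 1.51, 1.64, 1.71 and 1.57), while *Hdac4* runs from -1.54 in the pools to 0.19 in day-7 male cells.

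Side by side, 5 of 33 enzymes had values above 0 in pooled neurons, day-3 cells and day-7 cells alike (*Tet3*, *Hdac6*, *Hdac7*, *Hdac9* and *Dnmt1*), 6 had values below 0 in all of them (*Hdac4*, *Hdac5*, *Hdac11*, *Ezh1*, *Setdb1* and *Kdm3a*), and 22 were of mixed sign. Over all 12519 genes followed in these comparisons 18.6% were above 0 and 22.3% below 0 throughout, or 40.9% of one sign against 33.3% of the enzymes. Most of the enzymes' values were small, and within the sexes at day 7 some signs turned: *Ezh1* and *Kdm3a* were at 0.30 and 0.34 in female cells, and *Setdb1* and *Hdac4* at 0.28 and 0.19 in male cells. When the pools were scaled by library size alone the median over all genes became -0.14 in place of 0.02 on the log2 scale, and the median over the enzymes -0.08 in place of 0.08.

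Not all neurons of the SNT side carried the injury marker. *Atf3* split them into separate clusters: 30 of 41 SNT cells at day 3 had at least 951 CPM and the other 11 at most 23 CPM, with the highest control cell at 75.7 CPM. At day 7, 12 of 33 SNT cells had at least 704 CPM and the other 21 at most 13.9 CPM, and no SNT cell lay between on either day. At day 3 all 24 cells with *Tet3* above every control cell were *Atf3*-high, as were all 21 with *Hdac11* below every control cell, all 11 with *Hdac4* below and all 4 with *Hdac6* above. So were all 7 with *Dnmt1* above, all 5 with *Suv39h1* below and all 4 with *Dnmt3a* below. It was 10 of 15 for *Tet2* below, 6 of 9 for *Hdac2* below, 10 of 12 for *Kdm6b* above and 1 of 3 for *Dnmt1* below. Of all day-3 SNT cells 30 of 41 were *Atf3*-high, and the same was not counted over all genes. At day 7, 12 of the 13 cells with *Tet3* above every control cell were *Atf3*-high, which is every *Atf3*-high cell, as were all 7 with *Hdac11* below and 10 of 14 with *Hdac6* above. *Hdac4* differed there: 2 of the 4 day-7 cells below every control cell and none of the 3 above were *Atf3*-high.

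*Dnmt3a* was otherwise: only 2 of the 13 day-7 cells above every control cell were *Atf3*-high, and for *Crebbp* 4 of 10. Other enzymes varied at day 7. For cells above, it was 2 of 7 for *Kdm6b*, 1 of 6 each for *Hdac7* and *Ehmt2*, and 4 of 5 for *Dnmt1*. For cells below every control cell, it was 6 of 8 for *Tet1*, 4 of 5 for *Suv39h1* and 1 of 6 for *Kat2a*. Of all day-7 SNT cells 12 of 33 were *Atf3*-high. At day 7 the median over all genes was 2 SNT cells above every control cell. These joint counts were made after the values were seen and describe cells that may share animals and whose libraries differ in depth. Within clusters the Spearman correlation of *Tet3* with *Atf3* was 0.20 over the 30 *Atf3*-high cells of day 3 and 0.34 over the 12 of day 7, and -0.16 and -0.51 over the other 11 and 21 cells, where 13 of the 21 day-7 cells had no *Atf3* count.

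**Figure D5:**
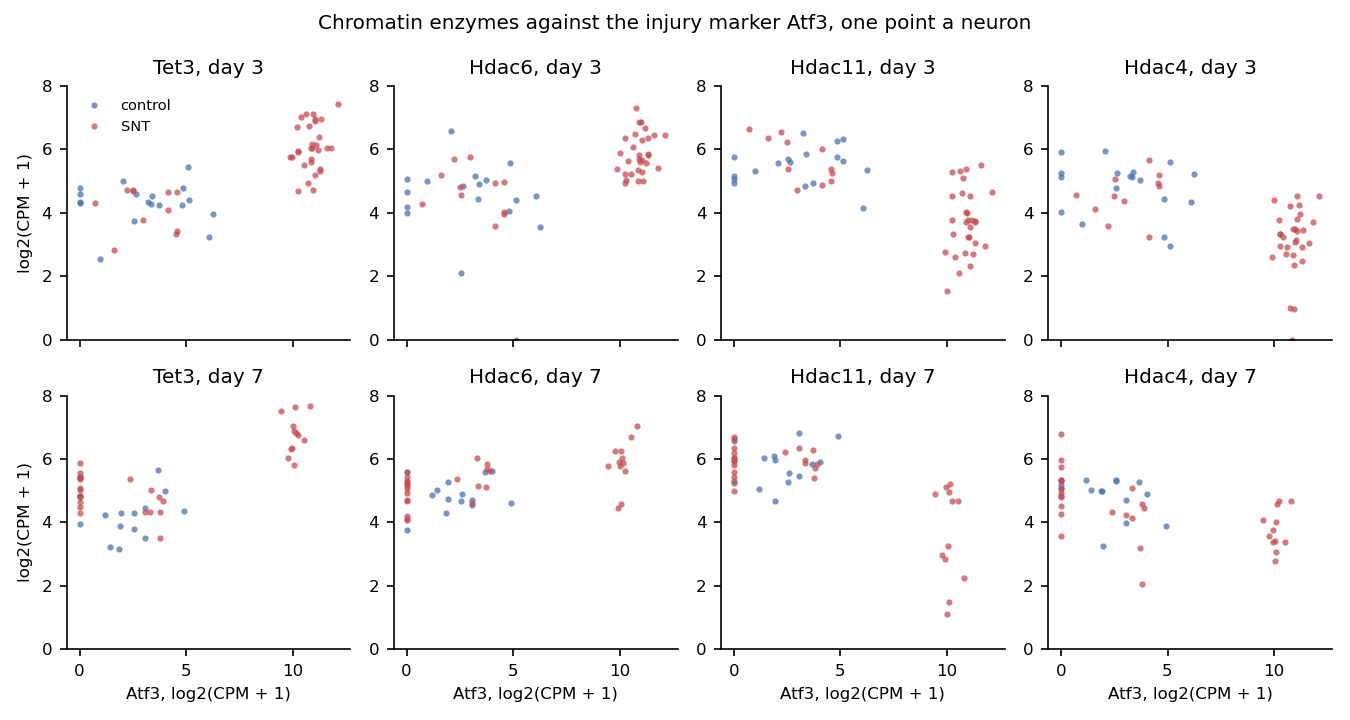
Level of *Tet3*, *Hdac6*, *Hdac11* and *Hdac4* against *Atf3*, both as log2(CPM + 1), with 1 point for each kept neuron, control in blue and SNT in red, at day 3 (top) and day 7 (bottom). SNT cells form a cluster at high *Atf3* (30 of 41 at day 3, 12 of 33 at day 7) and a cluster within the control range, and the high values of *Tet3* and low values of *Hdac11* lie in the former.

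Counting did not use strand as far as the sources say, so reads of a gene on the other strand cannot be told from the enzyme's own where exons overlap. In GENCODE M21 the exons of *Hdac4* share 3536 bases with *Gm26720*, a long noncoding RNA on the opposite strand, and those of *Hdac11* share 594 bases with *Gm44002* and 96 bases with the antisense gene *Gm14573*, so their levels are uncertain to that extent. None of these noncoding genes has a row of its own in the tables. *Tet3*, *Hdac6* and *Hdac3* are among the 19 enzymes whose exons overlap no other gene, and 16 overlap at least 1.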

How the data were processed

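RNA was sequenced from single DRG neurons and pooled neurons. Per the labels and the study's methods, the authors aligned reads with Bowtie2 to mm9, estimated expression with RSEM on RefSeq exons (CASAVA 1.8.2 upstream) and deposited tables under the name TPM. These deposited values proved to be RSEM expected counts, since library totals differ, from 223967 to 2003817, and 60.7% to 93.6% of values above 0 are whole. They were scaled to CPM by library total (cells and marker sums) or by library total and TMM factor (genes in pooled libraries), and for tests rounded to whole numbers. Every value column was used.

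Pooled libraries (3 a side) were compared with edgeR 4.0.16 in R 4.3.3 (quasi-likelihood test, TMM, mean of at least 1 CPM, Benjamini-Hochberg over all genes, adjusted p below 0.05). limma 3.58.1 and DESeq2 1.42.0 were alternatives. The difference between 2 libraries of a side exceeded counting noise (chi-square per gene 2.48 to 3.93). Cells were compared by the log2 ratio of mean CPM + 1, without a test, in Python 3.11.15. No animal is named for any cell, and no 2 cells held identical values. Scripts were tested on simulated data.

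The members and lists were chosen with earlier results of these data known. Full values were given to enzymes that passed the pooled test or were past 2-fold in cells where the higher side averaged at least 10 CPM, and to the 2 largest rises and 2 largest falls past 2-fold among other chromatin genes that passed the test. Further enzymes were named by role, and the joint counts with *Atf3* and the promoter search were chosen after values were seen. Depth limits genes of a few counts per library, and a gene with fewer than 3 counts in a group was given no fold. Some marker genes fixed for glia are not reported here and were left out of the glial sum.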

Additional observations from a re-analysis of the deposited data

How the results depend on the processing

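The 5 enzymes called in pooled neurons (3 higher, 2 lower) ranged from 4 to 6 with each library left out, with 1 to 3 of them lower, and were 5 under RLE size factors, library size alone, DESeq2, limma trend and other filters on low counts. Thinning to the smallest library left 1 lower. *Tet3*, *Hdac6* and *Hdac3* passed under all 14 refits, with log2 changes of 2.21 to 2.49, 1.48 to 2.20 and 0.69 to 1.08. *Sirt2* passed without control library 2 and *Kdm3a* without control library 3. With the replicate block the calls were also 5 enzymes, and 19 other chromatin genes. Same-numbered libraries did not deviate together (correlations of 0.058, -0.017 and -0.006), and not every library correlated best with its own number.

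Of 17 other chromatin genes called (10 higher, 7 lower), there were 11 when thinned (2 lower) and 8 past 2-fold (5 higher, 3 lower). The lower calls were 11 under library size alone and 4 under DESeq2, and each library left out gave 2 to 6. Library size alone also moved the share of higher calls over all genes from 56.5% to 42.9%. The causes were not tested.

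Past 2-fold in day-3 cells were 2 enzymes (1 higher, 1 lower). By medians there were 5 (3 higher, 2 lower). With a pseudocount of 10 CPM, or with outlier cells included, there was 1, with 0 lower. Summed counts, the highest cell of each side left out, or a pseudocount of 0.1 CPM gave 2 higher. In day-7 cells the 1 enzyme, higher, became 4 by medians, 2 when thinned to 200000 counts, 2 in female and 3 in male cells, all higher. *Tet3* was past 2-fold in every one of these. Depth limits members of a few counts per library, such as *Hdac8*, *Sirt1* and *Ezh2*.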
